A study of Homo sapiens with 9 samples.

Results

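The genes described here are those of 10 SR splicing factors, SRSF1, SRSF2, SRSF3, SRSF4, SRSF5, SRSF6, SRSF7, SRSF11, TRA2A and TRA2B, chosen by name out of the 19383 protein-coding genes of the GENCODE annotation of GRCh38. All 10 were found. For each of them, the peaks of every library that lie on the strand of the gene were collected, with the question of how the spliceosomal proteins PRPF8 and SF3B4 and the splicing regulator RBFOX2 are placed at poison exons and retained introns relative to RNA-binding proteins (RBPs) that bind mature mRNA. The data come from antibody-barcode eCLIP (ABC), in which antibodies carrying DNA barcodes precipitate UV-crosslinked RBPs from 1 lysate and the barcode is ligated onto the bound RNA, so that 10 RBPs are read from 1 tube. Cells of 2 lines were used, with no treatment or genetic change given in the labels: K562, a human erythroleukaemia line, with 3 tubes (called pools here), and HEK293T, a human embryonic kidney line, with 2 pools. Each pool gave 1 library for each of PRPF8, SF3B4, RBFOX2 and the 7 mRNA-bound proteins DDX3, EIF3G, FAM120A, IGF2BP2, LIN28B, PUM2 and ZC3H11A, which makes 50 libraries. A further 4 libraries were made with a single antibody each (singleplex), 2 for RBFOX2 in HEK293T and 2 for the histone mRNA binding protein SLBP in K562.

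SR proteins carry RNA recognition motifs and a domain rich in arginine and serine, and they bind exonic enhancers and help to recruit the spliceosome. Their own genes hold some of the most conserved stretches of the human genome, the poison exons: cassette exons with a stop codon in frame, whose inclusion sends the transcript to nonsense-mediated decay and so lets an SR protein limit its own level. Retained introns act in the same genes as another way to withhold message. SF3B4 is a subunit of the U2 particle that contacts RNA near the branch point upstream of a 3′ splice site, PRPF8 is the central U5 protein that holds the 5′ splice site in the spliceosome, and RBFOX2 binds the letters GCATG beside regulated exons.

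The annotation held 16 poison exons in 8 of the genes (none in SRSF1 and SRSF5) and 9 retained introns in 5 of them. A poison exon was an exon of a transcript annotated as a decay target that lies inside an intron of the principal transcript. Its window adds 100 nt on either side, cut at the ends of that intron. Peaks fell in 14 of the windows and in all 9 retained introns, and 13 windows and 6 introns had reads in at least 3 of the 50 pooled libraries and could be tested. Poison exons are numbered below by the intron of the principal transcript that holds them and by their order along the genome, so that SRSF4 has poison exons 1.1, 1.2 and 1.3 in its intron 1. SRSF1 and SRSF2 also have introns of decay transcripts inside their last exon, which are described apart.

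The sequences that carry the main findings are given from GRCh38, 5′ to 3′ on the strand of the gene. Poison exon 1.1 of SRSF4 (175 nt, chr1:29165890-29166064, minus strand) is shown with 60 nt on each side, chr1:29165830-29166124, and poison exon 2.3 of SRSF11 (117 nt, chr1:70231859-70231975, plus strand) with 90 nt on each side, chr1:70231769-70232065. The exon is in capitals. SF3B4 peaks lay on the lower-case stretch before each exon, and where PRPF8 had a peak (all 5 libraries at SRSF4, 3 at SRSF11) it lay on the junction after it.
SRSF4 poison exon 1.1: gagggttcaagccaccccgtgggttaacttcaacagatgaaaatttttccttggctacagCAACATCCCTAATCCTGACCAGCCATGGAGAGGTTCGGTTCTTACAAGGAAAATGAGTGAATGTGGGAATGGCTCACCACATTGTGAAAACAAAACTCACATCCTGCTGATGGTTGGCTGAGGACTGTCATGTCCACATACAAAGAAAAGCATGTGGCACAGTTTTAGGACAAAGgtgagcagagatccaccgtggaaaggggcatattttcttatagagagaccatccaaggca
SRSF11 poison exon 2.3: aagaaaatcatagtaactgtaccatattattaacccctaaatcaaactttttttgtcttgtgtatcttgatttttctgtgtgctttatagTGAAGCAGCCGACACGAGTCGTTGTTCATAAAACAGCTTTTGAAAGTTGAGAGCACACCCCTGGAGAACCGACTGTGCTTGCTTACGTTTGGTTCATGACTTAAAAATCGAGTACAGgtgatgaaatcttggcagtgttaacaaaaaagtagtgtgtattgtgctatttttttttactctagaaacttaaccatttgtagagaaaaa
The end of retained intron 5 of SRSF5 (chr14:69770395-69770478, plus strand, the longest SF3B4 peak there) and the start of retained intron 4 of TRA2B (chr3:185923751-185923822, minus strand, the longest PRPF8 peak there) are shown for the retained introns, with bases of the principal transcript's exons in capitals.
SRSF5 retained intron 5: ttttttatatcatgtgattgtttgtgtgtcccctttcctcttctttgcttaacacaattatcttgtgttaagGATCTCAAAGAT
TRA2B retained intron 4: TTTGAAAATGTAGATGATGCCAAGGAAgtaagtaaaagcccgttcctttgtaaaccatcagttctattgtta
For RBFOX2, the longest peak in the flank of a poison exon is shown for SRSF6 (upstream of exon 2.1 and reaching into the exon, which starts at 43459153, chr20:43459047-43459180, plus strand), TRA2B (downstream of exon 1.1, chr3:185931413-185931574, minus strand) and TRA2A (downstream of exon 1.1 and reaching its last bases, chr7:23521967-23522134, minus strand). Here the capitals mark GCATG, which each of the 3 peaks holds 1 time.
SRSF6 flank: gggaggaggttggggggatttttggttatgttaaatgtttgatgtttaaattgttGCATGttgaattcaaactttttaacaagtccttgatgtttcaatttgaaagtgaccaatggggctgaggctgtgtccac
TRA2B flank: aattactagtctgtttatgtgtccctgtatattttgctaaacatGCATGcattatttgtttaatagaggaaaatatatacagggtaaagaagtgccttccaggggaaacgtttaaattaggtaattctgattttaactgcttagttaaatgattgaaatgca
TRA2A flank: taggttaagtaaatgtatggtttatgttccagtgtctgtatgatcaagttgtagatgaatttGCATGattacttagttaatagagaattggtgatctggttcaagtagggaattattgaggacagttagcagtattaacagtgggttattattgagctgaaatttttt

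Levels are given as RPM, the reads in the peaks of a region divided by all reads in the peaks of that library, times 1000000. The pooled libraries held 13666 to 2359164 peak reads in K562 and 18398 to 2980093 in HEK293T. A value of 0 means that no called peak had its centre in the region, and a peak centred beside it can still reach in. The smallest peaks held 3 reads, which is 3.99 to 5.82 RPM in PRPF8, 6.11 to 15.8 in SF3B4 and 4.49 to 8.10 in RBFOX2 in K562, 1.78 to 2.86, 7.42 to 11.8 and 1.13 to 1.93 in HEK293T, and up to 220 RPM in PUM2. These floors cover counting error only, and reads are not independent molecules where amplification copies remain. RPM is not divided by the RNA level of the gene, so more transcript, more cells that hold it and more protein per transcript cannot be told apart. The labels of the HEK293T pools name K562 as the cell line in a second field, and the second of these pools is titled as a first replicate that was originally the second. Erythroid genes had reads for 11 to 12 of 12 genes in the K562 pools and 1 to 2 of 12 in the HEK293T pools (median summed level over the libraries of a pool 1561 to 3593 against 42.6 to 61.9 RPM), and HEK293 genes for 1 of 8 in the K562 pools against 6 of 8 in the HEK293T pools, so the titles were followed. Nothing in the labels says that pools came from separate cultures, so p-values measure only the spread between pools, which may be technical, and line and set of pools cannot be told apart.

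Reads at poison exons and retained introns made up a larger part of the SR genes' reads for the 3 splicing proteins than for the 7 mRNA-bound RBPs. In K562, 18.1% ± 3.72 (SD, n = 3) of the SF3B4 reads in the 10 genes lay at these sites, 12.3% ± 1.38 of the PRPF8 reads and 8.58% ± 0.94 of the RBFOX2 reads. Among the mRNA-bound RBPs in K562, the means ran from 0% for PUM2 and 0.37% for FAM120A to 6.86% for IGF2BP2. In HEK293T the means were 13.9% ± 6.33 (SD, n = 2) for SF3B4, 8.79% ± 0.07 for RBFOX2 and 5.55% ± 1.30 for PRPF8, against 0.21% (FAM120A) to 3.11% (DDX3). IGF2BP2 in K562 came closest of the 7 to the splicing proteins, with an SD of 3.01 that overlaps the RBFOX2 libraries. Singleplex RBFOX2 had 14.8% ± 3.06 (SD, n = 2). Over the 1483 genes that have both kinds of site, the percentages were higher for each of the 10 RBPs in both lines, and the order was different. In K562, PUM2 had 42.1% there, above SF3B4 (37.9%), while PRPF8 had 22.6%, RBFOX2 25.9% and FAM120A 7.23%. PUM2 has the fewest reads of all (13666 to 18625 in K562), and its 0% rests on 10, 40 and 22 reads in the SR genes. The shares are a description and were not tested.

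**Figure D1:**
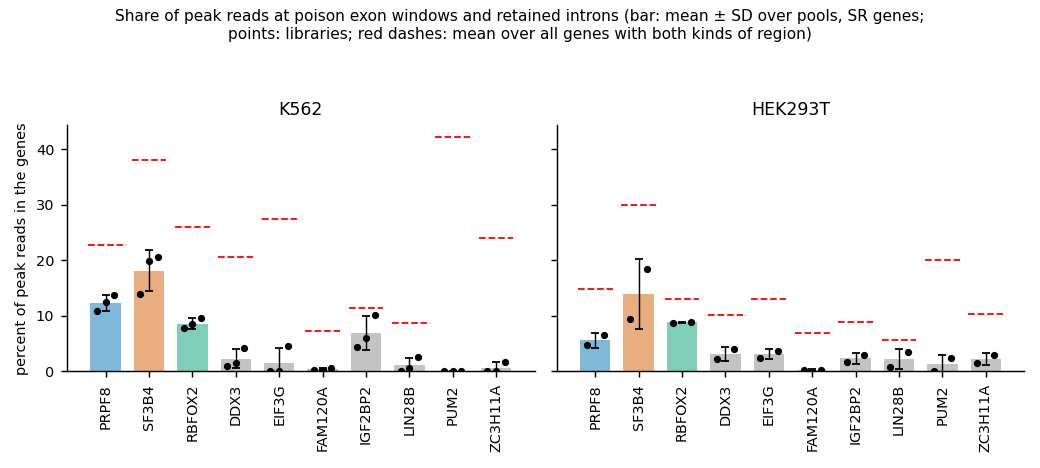
Percent of each RBP's peak reads in the 10 SR genes that lie in poison exon windows and retained introns (y axis), for K562 (left) and HEK293T (right). Bars are means with SD over 3 or 2 pools, points are libraries and red dashes are the mean over 1483 genes that have both kinds of site, which lies above the bar for each RBP. SF3B4 stands at 18.1% and 13.9%, and FAM120A at 0.37% and 0.21%.

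Counted per length, PRPF8, SF3B4 and RBFOX2 had more reads in the poison exon windows than in the other introns of the same genes, and so had several of the mRNA-bound RBPs. In K562, PRPF8 had 33.1 ± 7.71 RPM per kb in the poison exon windows and 38.5 ± 5.73 in retained introns, against 14.5 ± 0.20 in the remaining introns (SD, n = 3). SF3B4 had 34.7 ± 12.6 and 26.8 ± 8.14 RPM per kb there, against 6.82 ± 2.17. RBFOX2 had 22.9 ± 6.04 RPM per kb in the windows and only 2.90 ± 0.92 in the retained introns, below the 6.27 ± 1.96 of its remaining introns. FAM120A lay on exons, with 209 ± 47.4 RPM per kb there, 3.65 ± 0.57 in the windows and 0.82 ± 0.35 in the remaining introns. IGF2BP2 had 13.1 ± 7.75 and 0.75 ± 0.16 RPM per kb in the windows and the remaining introns in K562, and ZC3H11A 15.6 and 2.96 in HEK293T. The 1483 genes with both kinds of site showed the same direction in K562, with 3.00 against 0.87 RPM per kb for PRPF8, 3.39 against 0.64 for SF3B4 and 2.40 against 0.58 for RBFOX2, so the contrast of windows with introns is not particular to the SR genes. The HEK293T order for RBFOX2 was the same, with 30.5, 11.04 and 13.9 RPM per kb in windows, retained introns and remaining introns. PRPF8 and SF3B4 had more in the windows than in the remaining introns in HEK293T as well, with 22.3 and 48.8 RPM per kb against 12.8 and 12.7. Their retained introns had 28.1 ± 9.47 and 73.9 ± 67.6 RPM per kb there (SD, n = 2). The 2 SF3B4 pools lay far apart, at 122 and 26.1, so its order of windows and retained introns is not settled in HEK293T.

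Site by site, each of the 3 proteins was compared with the mean of the 7 mRNA-bound RBPs in 1 limma fit over 27646 regions of all genes, and a site was called higher at an adjusted p under 0.05 with reads in at least 2 libraries of the protein. In K562, SF3B4 was higher at 5 of the 13 poison exon windows, where 6.08% of all 822 windows tested were called, and at 2 of the 6 retained introns (13.6% of all 4382). PRPF8 was higher at 5 windows (14.0% of all) and at all 6 retained introns tested (32.5% of all). RBFOX2 was higher at 2 windows (5.60% of all) and at none of the retained introns (4.50% of all). In HEK293T, SF3B4 was higher at 5 windows (9.73% of all) and 2 introns (19.3%), PRPF8 at 3 windows (11.9%) and 2 introns (32.4%), and RBFOX2 at 5 windows (14.2%) and 1 intron (8.35%). Where any overlap was counted in place of the centre, the PRPF8 calls in HEK293T were 4 windows (15.4% of all) and 7 of 9 introns (40.3% of all), beside 5 and 7 in K562. The PRPF8 introns in HEK293T were called at the background share and the RBFOX2 introns in K562 below it, and the other counts were larger shares than in all genes, the lowest of them on 1 intron. The median log2 difference over the 13 windows was 0.48 for PRPF8, 0.35 for SF3B4 and -0.95 for RBFOX2 in K562, beside -1.55, -1.22 and -1.96 over all windows. Over the 6 retained introns it was 2.55, 0.40 and -1.31, beside 0.12, -0.57 and -1.96. In HEK293T the window medians were -0.30, 1.49 and -0.87 (all windows -1.53, -0.41 and -1.70) and the intron medians 0.07, 1.05 and -1.88 (all introns -0.10, 0.19 and -3.07). These counts leave out the 3 windows and 3 introns with reads in fewer than 3 libraries. At SRSF3 retained intron 5, SRSF4 retained intron 2, TRA2A retained intron 7 and SRSF4 poison exon 1.3, no library of the 7 had reads in either line. Those sites could be tested only through reads of PRPF8, SF3B4 and RBFOX2, so the count of 6 of 6 introns for PRPF8 is partly set by the filter. The same limit holds for the calls of SF3B4 and RBFOX2 at these sites. Lower values were not called, since libraries with few reads and no peak at a site stand above deeper ones in this fit, and in simulated data 46.25% of unchanged regions came out lower. The simulation recovered 92% of regions raised 4-fold and 88% of those raised 8-fold for PRPF8 in K562, with 0.483% of unchanged regions called higher. The raised regions were drawn only from those with many reads, and most of the sites tested here hold fewer. The 92% and 88% thus do not say how often such a rise would be found at these sites. FAM120A has the deepest libraries of the 7, and against it alone, a comparison added after the data were seen, the counts in K562 were 8 windows (33.3% of all) and 6 introns (61.7%) for PRPF8, 6 (12.5%) and 3 (24.7%) for SF3B4, and 6 (13.1%) and 2 (10.8%) for RBFOX2.

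**Figure D2:**
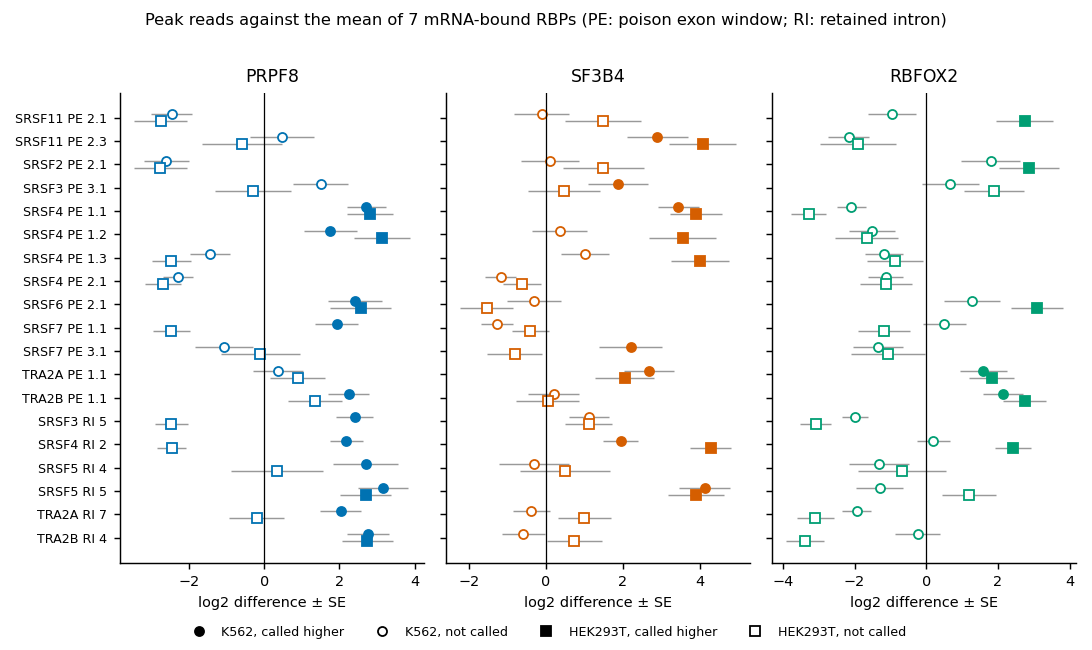
Log2 difference (x axis, with SE from limma) between PRPF8, SF3B4 or RBFOX2 and the mean of the 7 mRNA-bound RBPs at the 13 poison exon windows (PE) and 6 retained introns (RI) tested. Circles are K562 and squares HEK293T, and filled symbols were called higher. SRSF4 PE 1.1 is filled for PRPF8 and SF3B4 in both lines, and TRA2A PE 1.1 and TRA2B PE 1.1 for RBFOX2 in both.

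At the SRSF4 poison exons, SF3B4 was called at exon 1.1 in both lines. SRSF4 poison exon 1.1 had 35.9, 52.9 and 52.8 RPM of SF3B4 in the 3 K562 pools and 23.7 and 47.0 in the HEK293T pools. Every SF3B4 value stood above every value of the 7 mRNA-bound RBPs, whose highest were 15.8 RPM in K562 and 12.8 in HEK293T. RBFOX2 had no peak there. A 0 of EIF3G or PUM2 need not be a level below SF3B4. Their smallest peaks of 3 reads are 63.7 to 92.3 and 161 to 220 RPM in K562, and 24.1 to 41.6 and 97.8 to 163 RPM in HEK293T. The log2 difference was 3.45 ± 0.53 (SE) in K562 (limma, adjusted p = 2.0e-06) and 3.90 ± 0.68 in HEK293T (adjusted p = 2.2e-05). The SF3B4 peak centres lay 24, 30 and 37 nt upstream of the 3′ splice site in K562 and 28 and 41 nt upstream in HEK293T, on the lower-case bases before the SRSF4 exon above. In HEK293T, SF3B4 was also higher at SRSF4 poison exons 1.2 (log2 3.56 ± 0.87) and 1.3 (4.005 ± 0.75), and at SRSF4 retained intron 2 (4.29 ± 0.53). The first of these did not pass without the first pool (adjusted p = 0.071), and the second did not pass with a flank of 50 nt (adjusted p = 0.17). At exon 1.3 and retained intron 2 no library of the 7 had reads in either line, so SF3B4 is set against library depth only there. In K562, SF3B4 had 10.8, 12.2 and 0 RPM at exon 1.2, where the 7 reached 15.8, and 0, 12.2 and 21.1 at exon 1.3, and neither was called. At SRSF4 poison exon 2.1 it had 0 in all 5 libraries. In K562, SF3B4 at retained intron 2 was higher by 1.94 ± 0.46, with 10.8, 14.3 and 15.8 RPM (3, 7 and 3 reads), and did not pass where any overlap was counted (adjusted p = 0.11).

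At SRSF11, which encodes an SR-related protein, SF3B4 lay before poison exon 2.3. Its libraries had 14.4, 40.7 and 58.1 RPM in K562 and 79.0 and 99.0 in HEK293T. PRPF8 had 19.4, 0 and 14.6 RPM in K562 and 29.6 and 0 in HEK293T, and RBFOX2 had 9.003 RPM in 1 HEK293T library and 0 in the other 4. The 7 mRNA-bound RBPs reached 26.9 RPM (IGF2BP2) in K562 and 77.9 (ZC3H11A) in HEK293T, so 1 of the SF3B4 libraries in K562 lay within their range and both in HEK293T lay above it. The difference from their mean was 2.90 ± 0.80 (log2, adjusted p = 0.0027) in K562 and 4.09 ± 0.87 (adjusted p = 3.3e-04) in HEK293T. The centres were 44, 48 and 53 nt before the exon in K562 and 58 and 81 nt before it in HEK293T, and with a flank of 50 nt in place of 100 nt the difference no longer passed in either line (1.88, adjusted p = 0.083, and 0.99, adjusted p = 0.50). With the complement control, the reads of the other 9 barcodes of the same pool, these upstream peaks were 18.5- to 40.3-fold enriched in K562. Outside the third K562 pool, folds over this control were recovered from a deposited chi-squared statistic.

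TRA2A and TRA2B are the human relatives of the Drosophila sex determination factor Transformer-2. TRA2A poison exon 1.1 (301 nt) had 14.4, 36.7 and 36.9 RPM of SF3B4 in K562 and 59.2 and 52.0 in HEK293T. In K562 only 1 library of the 7 mRNA-bound RBPs had reads there, FAM120A with 3.11 RPM, whereas in HEK293T 10 of the 14 had reads and PUM2 reached 130 RPM. SF3B4 was higher by 2.69 ± 0.65 in K562 (adjusted p = 8.6e-04) and by 2.05 ± 0.76 in HEK293T (adjusted p = 0.035, and up to 0.53 over the alternatives). The HEK293T call was lost without the replicate block and without the first pool. In K562 the peaks before the exon were centred 22, 24 and 38 nt from the 3′ splice site and 12.4- to 37.8-fold enriched over the complement control. TRA2B poison exon 1.1 (276 nt) had 10.8, 14.3 and 15.8 RPM of SF3B4 in K562, all of it on the exon, and the difference from the 7 (0.20 in K562) did not pass the test in either line.

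SRSF5 has no annotated poison exon, and its most-read site was retained intron 5 (1215 nt, chr14:69769252-69770466). SF3B4 had 32.3, 108 and 106 RPM there in K562 and 482 and 99.0 in HEK293T, so the HEK293T pools were far apart. In K562, 1 of the 21 libraries of the 7 had reads (DDX3, 14.4 RPM), below each SF3B4 library. In HEK293T 9 of the 14 had reads, up to 83.3 RPM (EIF3G), not far below the lower SF3B4 library. The differences were 4.13 ± 0.67 (adjusted p = 5.4e-06) in K562 and 3.91 ± 0.74 (adjusted p = 7.3e-05) in HEK293T. The largest SF3B4 peaks covered the last bases of the intron, as in the sequence above, in all K562 pools and the first HEK293T pool, with 32.3, 83.5 and 79.2 RPM in K562 and 336 RPM in HEK293T. A second SF3B4 peak inside the intron, starting at chr14:69770194 to 69770198, carried 24.4 RPM in the second K562 pool and 86.9 and 99.0 RPM in HEK293T.

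SF3B4 was called at SRSF3 and SRSF7 in K562 only, and the difference between the lines did not pass the test at either site (adjusted p = 0.50 and 0.065). SRSF3 poison exon 3.1, at 456 nt the longest of the set, had 35.9, 24.4 and 26.4 RPM of SF3B4, and the 7 reached 42.1 RPM (IGF2BP2). The difference was 1.88 ± 0.78 (adjusted p = 0.030), and it did not pass when any of the 3 K562 pools was left out (adjusted p up to 0.12). SRSF7 poison exon 3.1 (449 nt) had 10.8, 16.3 and 42.2 RPM of SF3B4 and a difference of 2.21 ± 0.82 (adjusted p = 0.016), which did not pass without the second or the third pool (adjusted p up to 0.21). In the second and the third pool, the SF3B4 peak was centred 23 and 36 nt before the exon of SRSF7.

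**Figure D3:**
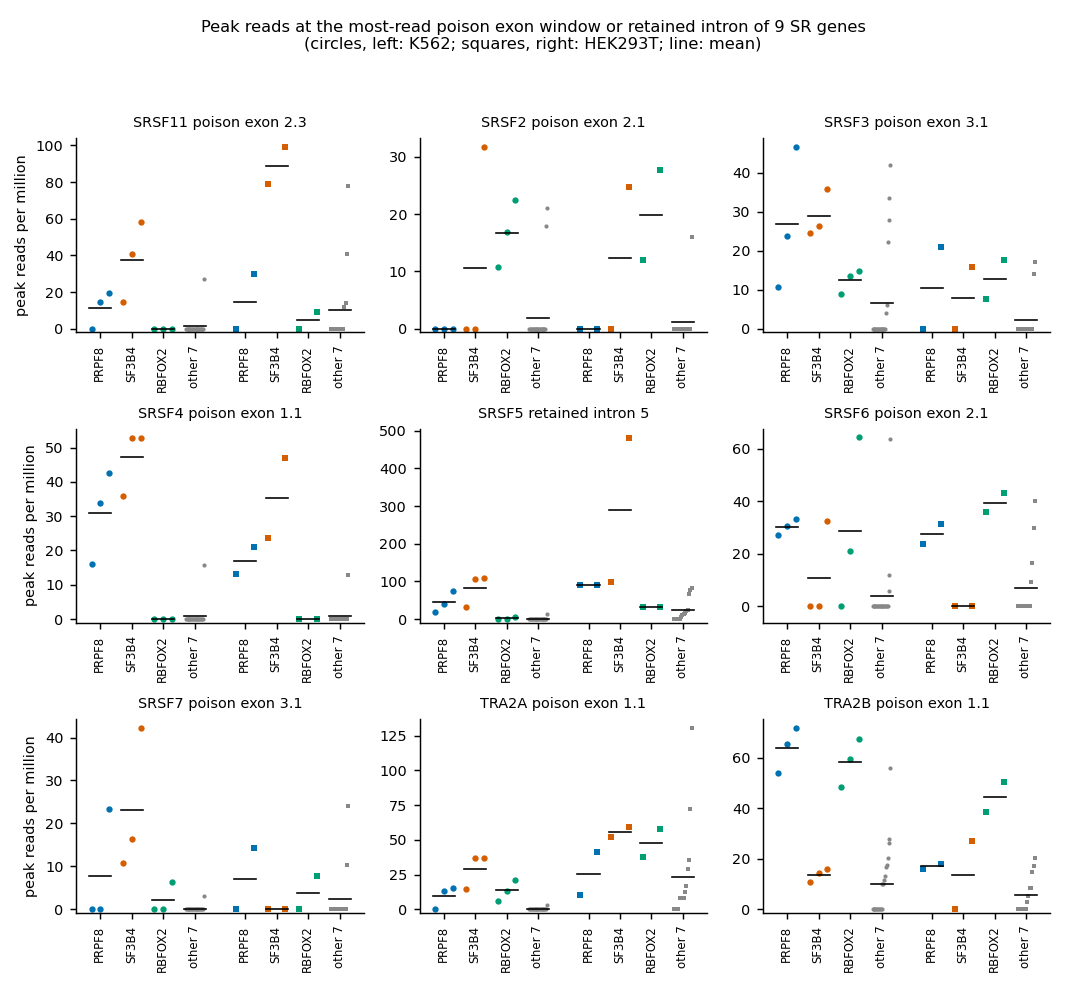
RPM of peak reads (y axis, own scale per panel) at the site with the most reads of each of 9 SR genes, for PRPF8, SF3B4, RBFOX2 and the 7 mRNA-bound RBPs together. Circles are K562 libraries and squares HEK293T libraries, with means as lines. At SRSF4 the SF3B4 libraries lie between 23.7 and 52.9 RPM, above all of the 7, and at TRA2B in K562 PRPF8 and RBFOX2 lie together at 48.6 to 71.8 RPM.

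SRSF4 poison exon 1.1 was the 1 window called for both SF3B4 and PRPF8 in K562, and in HEK293T exons 1.1 and 1.2 were. SRSF4 poison exon 1.1 had 42.7, 33.8 and 15.98 RPM of PRPF8 in K562 and 21.0 and 13.1 in HEK293T, in all 5 libraries above the highest value of the 7. All 5 lie under the 3-read floors of EIF3G and PUM2 in their line. The centres lay 11, 11 and 14 nt downstream of the 5′ splice site in K562 and 15 and 7 nt downstream in HEK293T. The difference was 2.71 ± 0.51 (adjusted p = 1.4e-05) in K562 and 2.82 ± 0.62 (adjusted p = 2.3e-04) in HEK293T. SRSF4 poison exon 1.2 had 15.5, 16.9 and 21.3 RPM of PRPF8 in K562 and 31.5 and 20.8 in HEK293T, higher by 1.76 ± 0.70 (adjusted p = 0.024) and 3.14 ± 0.75. The K562 call at exon 1.2 did not pass without the second or the third pool (adjusted p up to 0.098).

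SRSF6 poison exon 2.1 (268 nt) was the most even of the PRPF8 sites, with 27.2, 30.4 and 33.3 RPM in K562 and 31.5 and 23.7 in HEK293T. Each library had a peak centred 9 to 24 nt downstream of the 5′ splice site. Reads of the 7 were present in 3 of 21 libraries in K562 and 4 of 14 in HEK293T, and the highest were EIF3G, a translation initiation factor, with 63.7 RPM (3 reads) and 40.2 RPM (5 reads). PRPF8 was higher than the mean of the 7 by 2.41 ± 0.71 in K562 (adjusted p = 0.0031) and by 2.57 ± 0.80 in HEK293T (adjusted p = 0.0076, and 0.14 without the first pool). TRA2B poison exon 1.1 had 71.8, 54.1 and 65.2 RPM of PRPF8 in K562 (higher by 2.25 ± 0.54, adjusted p = 3.7e-04) and 18.1 and 16.03 in HEK293T (1.36 ± 0.72, not called). Besides a peak across the 5′ splice site, with centres at 11, 15 and -3 nt in K562, PRPF8 had further peaks inside the TRA2B exon. SRSF7 poison exon 1.1 had 11.6, 20.3 and 15.98 RPM of PRPF8 in K562 and 0 in both HEK293T libraries. Its K562 difference (1.93 ± 0.57, adjusted p = 0.0031) turned to -2.38 with a flank of 50 nt. The window of this SRSF7 exon (505 nt, with an exon of 315 nt) reaches the start of intron 1. PRPF8 reads at the ordinary 5′ splice site there could not be separated from reads at the poison exon.

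The retained introns called for PRPF8 in K562 were those of SRSF3, SRSF4, TRA2A and TRA2B and both tested introns of SRSF5. TRA2B retained intron 4 had 42.7, 16.9 and 43.9 RPM of PRPF8 in K562 and 18.1 and 15.4 in HEK293T, with differences of 2.77 ± 0.56 (adjusted p = 4.3e-05) and 2.75 ± 0.68 (adjusted p = 9.4e-04). The main peak crossed the start of the intron in all 5 libraries. SRSF5 retained intron 5 had 17.5, 74.4 and 39.9 RPM in K562 and 90.6 and 90.2 in HEK293T, higher by 3.16 ± 0.67 and 2.695 ± 0.69. The highest library of the 7 there had 14.4 RPM in K562 and 83.3 RPM in HEK293T. At SRSF3 retained intron 5 (23.3, 15.2 and 24.0 RPM), SRSF4 retained intron 2 (23.3, 15.2 and 14.6) and TRA2A retained intron 7 (15.5, 11.8 and 20.0), no library of the 7 had reads in K562. These PRPF8 values lie under the smallest possible peaks of EIF3G, PUM2 and ZC3H11A in K562, which start at 63.7, 161 and 27.9 RPM. SRSF5 retained intron 4 had 33.0, 37.2 and 30.6 RPM in K562, all below the highest library of the 7 there (40.4 RPM), and its call did not pass without the second pool (adjusted p = 0.079).

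In K562, SF3B4 peaks of the members lay mostly before the poison exons. There, 17 of the 29 SF3B4 peaks in poison exon windows were centred within 50 nt upstream of the 3′ splice site (58.6%, against 38.2% over all genes), and 0 of 34 PRPF8 peaks were. PRPF8 had 18 of 34 peaks within 30 nt of the 5′ splice site (52.9%, near the 54.8% over all genes), and SF3B4 had 2 of 29. In HEK293T the counts were 6 of 20 for SF3B4 at the 3′ splice site (30%, against 26.6% over all genes) and 7 of 18 for PRPF8 at the 5′ splice site (38.9%, against 45.2%), and 3 of the 20 SF3B4 peaks lay within 30 nt of the 5′ splice site. In that line 9 of the SF3B4 and 12 of the PRPF8 peaks lay on the exon. Window peaks of the 7 mRNA-bound RBPs lay near the 3′ and the 5′ splice site in 12.1% and 18.2% of 33 cases in K562. In HEK293T these were 0% and 20% of 40. At the ends of the retained and other introns, 51.3% of 113 SF3B4 peaks in K562 lay within 50 nt before a 3′ splice site and 68.8% of 144 PRPF8 peaks within 30 nt of a 5′ splice site. For the 7 mRNA-bound RBPs these shares were 1.69% and 33.1% of 118 peaks. In HEK293T they were lower, with 26.9% of 93 SF3B4 peaks, 46.9% of 96 PRPF8 peaks, and 0.72% and 11.9% of 277 peaks of the 7. Peaks of 1 library are not independent, and these shares are given without a test.

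**Figure D4:**
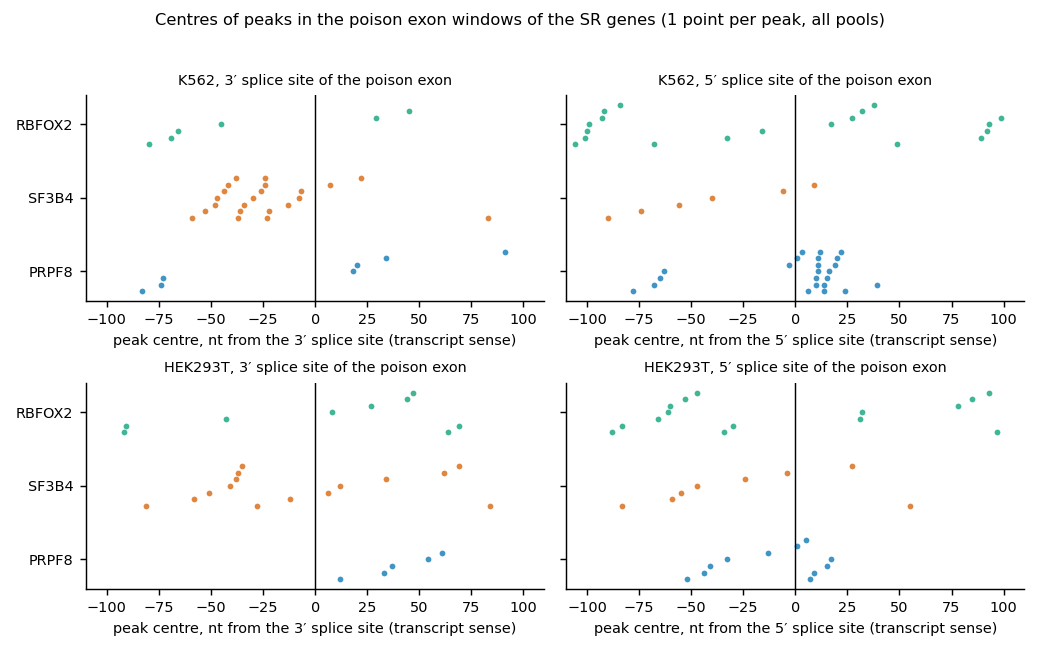
Distance in nt (x axis, transcript sense, negative is upstream) of peak centres from the 3′ (left) and 5′ (right) splice site of the poison exons, for all peaks in the SR gene windows that lie within 110 nt, with 1 point per peak. In K562 (top), SF3B4 points gather between -60 and 0 nt at the 3′ splice site and most PRPF8 points between -3 and 39 nt from the 5′ splice site, with 4 further PRPF8 points between -78 and -63 nt, and RBFOX2 points are spread.

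RBFOX2 was called at the poison exons of TRA2A and TRA2B in both lines. TRA2B poison exon 1.1 had 59.4, 67.4 and 48.6 RPM of RBFOX2 in K562, 38.6 and 50.4 in HEK293T and 55.6 and 21.0 in the singleplex libraries. The 7 mRNA-bound RBPs had reads in 10 of 21 libraries in K562, up to 56.0 RPM (DDX3), and in 7 of 14 in HEK293T, up to 20.3 RPM. RBFOX2 was higher by 2.13 ± 0.56 in K562 (adjusted p = 8.8e-04) and by 2.75 ± 0.60 in HEK293T (adjusted p = 1.2e-04). Peaks lay on the exon and on the downstream flank, and the flank peak in K562 was centred 99, 93 and 49 nt after the 5′ splice site. That of the second pool was 9.66-fold enriched over the complement control. The TRA2B flank peak printed above, from a singleplex library, holds GCATG.

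TRA2A poison exon 1.1 had 21.2, 5.99 and 13.5 RPM of RBFOX2 in K562, 37.9 and 57.9 in HEK293T and 42.0 and 31.5 in the singleplex libraries. The differences were 1.59 ± 0.66 in K562 (adjusted p = 0.032) and 1.82 ± 0.63 in HEK293T (adjusted p = 0.012, and up to 0.36 over the alternatives, among them that without the first pool). The K562 value is the least stable of the RBFOX2 calls, with an adjusted p of up to 0.94 over the alternatives tried, the highest being that with a flank of 50 nt (log2 0.06), and it was lost without the replicate block too. The RBFOX2 peaks downstream of the exon were centred 73 to 93 nt after its 5′ splice site in the first and the third K562 pools, both HEK293T pools and both singleplex libraries. In the TRA2A flank printed above, also a singleplex peak, GCATG lies between the exon and these centres. TRA2A and TRA2B thus both had RBFOX2 peaks downstream of the poison exon.

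SRSF6 poison exon 2.1 had RBFOX2 on its upstream flank. The pooled libraries had 21.2, 64.4 and 0 RPM in K562 and 43.1 and 35.7 in HEK293T. The singleplex libraries reached 308 and 220 RPM, above all 5 pooled libraries, the first as a run of touching peaks along the same stretch. RBFOX2 was higher than the 7 by 3.08 ± 0.72 in HEK293T (adjusted p = 2.9e-04) and not called in K562 (1.27 ± 0.79). The HEK293T centres lie 91 and 92 nt before the exon, so a flank of 50 nt leaves them out and turns the difference (-4.01). The SRSF6 flank shown above, from a singleplex library, holds GCATG between these centres and the exon. In the same intron, nearer to its 5′ splice site, a further RBFOX2 peak had 114, 135 and 89.1 RPM in K562 and 164 and 197 in HEK293T, centred 54 to 90 nt into intron 2.

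SRSF2 and SRSF11 were called for RBFOX2 in HEK293T only. SRSF2 poison exon 2.1 (104 nt) had 27.7 and 12.03 RPM there (higher by 2.86 ± 0.84, adjusted p = 0.0035, and 0.072 without the first pool), 13.4 and 11.4 in the singleplex libraries, and 17.0, 22.5 and 10.8 in K562 (1.79 ± 0.82, not called). The RBFOX2 peak lay 27 to 38 nt after its 5′ splice site in all 7 RBFOX2 libraries, but it was 0.845- to 1.86-fold over the complement control in the 5 pools. SRSF11 poison exon 2.1 (62 nt) had 26.4 and 10.9 RPM in HEK293T, 28.4 and 13.2 in the singleplex libraries and 0, 0 and 8.10 in K562. Its HEK293T difference (2.74 ± 0.79, adjusted p = 0.0029) did not pass without the first pool (adjusted p = 0.066). SRSF4 retained intron 2 had 14.8 and 7.90 RPM in HEK293T, 35.8 and 21.0 in the singleplex libraries and 6.36, 10.5 and 0 in K562, where its peaks of 3 and 7 reads were 13.5- and 16.9-fold enriched over the complement control. The HEK293T peaks were 6.75-, 2.50- and 1.14-fold over it, below the limit of 8.

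The letters GCATG were found, on the strand of the gene, in the 100 nt around the centre of 44 of 145 intronic RBFOX2 peaks of the 10 genes in K562 (30.3%), 61 of 248 in HEK293T (24.6%) and 88 of 299 in the singleplex libraries (29.4%). Over all genes these shares were 36.9%, 34.4% and 36.8%. PRPF8 peaks of the SR genes held it in 6.74% and 5.26% and SF3B4 peaks in 8.45% and 9.73% of cases, near the 121 of 1200 tiles of 100 nt along the same introns (10.1%). A match of these letters is a description and not a binding site.

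SRSF1, the founding member of the family, had no poison exon or retained intron by these rules, and most of its reads belonged to FAM120A. This RNA-binding protein had 2922, 4473 and 6253 RPM on the SRSF1 exons in K562 and 4374 and 3900 in HEK293T, the highest of all RBPs in both lines, against 133, 232 and 201 RPM of SF3B4 in K562. Inside its last exon, the decay transcripts of SRSF1 splice an intron at chr17:58005042-58005397. SF3B4 had 82.6, 181 and 143 RPM in this intron in K562 and 537 and 337 in HEK293T. In every SF3B4 library 1 peak was centred 19 to 41 nt before the end of that intron, with 32.3, 116 and 111 RPM in K562 and 107 and 49.5 RPM in HEK293T. The first HEK293T library's peak was 491-fold over the complement control, while the first K562 library's was 1.12-fold. Both folds were recovered from a chi-squared statistic and rest on 1 library each. The higher one stands at the ceiling that 1 control read sets, since a control of 0 reads counts as 1. SF3B4 also had peaks further inside it, up to 284 RPM in HEK293T. LIN28B, which binds let-7 precursors and many mRNAs, had peaks in the same intron, further from its end, with 114, 376 and 693 RPM in K562 and 823 and 153 in HEK293T, and FAM120A had 189, 448 and 753 RPM in K562 and 554 and 338 in HEK293T. SRSF2 has such an intron at chr17:76734563-76735060, where PRPF8 had 40.7, 50.7 and 47.9 RPM in K562, centred 4 to 19 nt after its start, and none in HEK293T. SF3B4 had 0, 28.5 and 42.2 RPM there in K562 and 39.5 and 0 in HEK293T, and FAM120A had 58.0, 50.0 and 44.6 and 37.4 and 51.0. In the other such intron of SRSF1, chr17:58004002-58004922, FAM120A had 1127, 1329 and 2223 RPM in K562, while SF3B4 had 0, 8.15 and 0 in K562 and 71.1 and 0 in HEK293T. Other genes annotated on the same strand as SRSF1 and SRSF6 (protein-coding) and inside SRSF2 and SRSF4 (small RNAs) share reads with them and could not be separated.

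Some of the highest PRPF8 peaks lay outside the poison exons and retained introns. At the start of SRSF2 intron 2, PRPF8 peaks of 415, 301 and 445 RPM in K562 were 12.1- to 14.4-fold enriched over the complement control. In HEK293T the peak had 353 RPM in the first pool, and 19.6 RPM was the highest in the second. At the start of SRSF7 intron 3 PRPF8 had 107, 62.5 and 111 RPM in K562 and 162 and 137 in HEK293T, all centred 3 to 28 nt after the 5′ splice site. For SRSF11, the highest PRPF8 peaks of intron 1 had 134, 144 and 113 RPM in K562, those of the first and the third pool 955 and 964 nt into the intron.

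Enrichment over the complement control (P below 0.001 and a fold above 8) was reached at member sites most often by SF3B4. In K562, 11 of its 23 poison exon peaks with a value and 4 of 14 retained intron peaks passed, where 31.1% of all SF3B4 peaks passed. PRPF8 had 4 of 28 and 1 of 26 (22.6% of all its peaks), RBFOX2 2 of 21 and 2 of 6 (11.6%), and the 7 mRNA-bound RBPs 0 of 23 and 0 of 6 (20.7%). In HEK293T the counts were 5 of 15 and 3 of 10 for SF3B4 (24.4%), 2 of 13 and 1 of 10 for PRPF8 (18.2%), 0 of 22 and 0 of 13 for RBFOX2 (6.61%), and 1 of 26 and 0 of 17 for the 7 (16%). The PRPF8 share was thus below its own background in both lines. The SF3B4 counts were uneven between pools. In K562 the third pool had 7 of 8 poison exon peaks and 2 of 5 retained intron peaks. The first had 2 of 6 and 0 of 4, and the second 2 of 9 and 2 of 5. In HEK293T SF3B4 had 4 of 9 and 3 of 8 in the first pool, and 1 of 6 and 0 of 2 in the second. Peaks of different barcodes at one site lower each other's fold here, since each barcode is part of the others' control. The values of the third K562 pool were deposited, and those of the other pools were recovered.

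Between the lines, 8 member differences passed the test of the difference itself. For PRPF8 they were higher in K562 at SRSF7 poison exon 1.1 (-4.39 ± 0.75, HEK293T minus K562, against 10.7% of all windows), SRSF3 retained intron 5 (-4.87 ± 0.66) and SRSF4 retained intron 2 (-4.65 ± 0.58, against 15.3% of all introns). No HEK293T library of PRPF8, and none of the 14 of the 7 mRNA-bound RBPs, had a peak centre in these 3 sites. The HEK293T part of these differences thus holds library depth and no reads, so the passing values do not show less PRPF8 in HEK293T. Where any overlap was counted the differences turned to 1.28, 1.12 and 1.97 and none passed. For SF3B4 they were higher in HEK293T at SRSF4 poison exon 1.3 (2.99 ± 0.98, against 5.11% of windows) and SRSF4 retained intron 2 (2.35 ± 0.71, against 10.1% of introns). These calls were kept in only 5 and 7 of 14 alternative settings. Both were lost without the replicate block and with either HEK293T pool left out. No library of the 7 had reads at either site in either line, so the reference part of both differences holds library depth only. For RBFOX2 they were higher in HEK293T at SRSF11 poison exon 2.1 (3.69 ± 1.03, against 17.5%) and SRSF4 retained intron 2 (2.22 ± 0.67, against 8.72%), and higher in K562 at TRA2B retained intron 4 (-3.14 ± 0.82, against 3.24%), the last on 3 and 4 reads in 2 K562 libraries. Library depth enters the RBFOX2 differences too. The 7 had no reads at SRSF4 retained intron 2, and RBFOX2 had none at TRA2B retained intron 4 in HEK293T. The HEK293T reads rest in part on a nearest-value rule (8.78% of all reads at the members' sites in that line, 0% in K562).

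Among 20 other SR-related and spliceosome genes, 15 had 39 sites that could be tested, and no lower calls were used there either. Of their 22 windows, PRPF8 was higher at 10 in K562 and 9 in HEK293T (14.0% and 11.9% of all windows), SF3B4 at 8 and 7 (6.08% and 9.73%) and RBFOX2 at 4 and 7 (5.60% and 14.2%). Of their 17 retained introns, PRPF8 was higher at 10 and 7 (32.5% and 32.4% of all introns), SF3B4 at 6 and 8 (13.6% and 19.3%) and RBFOX2 at 2 and 4 (4.50% and 8.35%). The most-read of them were NKTR, SRRM2, SNRNP70 and RBM39. NKTR, a cyclophilin with an SR domain, was higher for PRPF8 at 4 of 5 sites and for RBFOX2 at 2 of 5 in K562, with log2 differences of up to 3.27 and 6.33. SRRM2, a scaffold of nuclear speckles, was higher for SF3B4 at 3 of 5 sites in K562 and 4 of 5 in HEK293T.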

How the data were processed

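Peak lists of 54 libraries from K562 and HEK293T were analysed. Per the labels and the study's methods, the authors trimmed reads with cutadapt (2.8), aligned them with STAR (2.7.6) to GRCh38, removed duplicates by molecular barcode and called peaks with CLIPper in each library separately. They deposited several kinds of list. One holds the CLIPper p-values as the authors deposited them, with the read number in the peak's name. In the other libraries the authors deposited, beside the p-value, a display score, the whole part of -10 × log10 of it. Another kind holds, as deposited by the authors, -log10 p and log2 fold of each peak's reads over an external background (RNA-seq). Over the complement control, such values were deposited for the third K562 pool only. For the other pools the authors deposited a chi-squared statistic per peak, from which control reads, direction, fold and P were recovered.

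Read numbers were taken from the names where these hold them and otherwise recovered from the deposited p-value and log2 fold. With names hidden, 97.0% to 100% of reads came back the same in 22 libraries (K562 pools 1 and 3 and singleplex RBFOX2, none of them a HEK293T pool). In the 10 libraries of the third K562 pool, complement reads came back the same in 83.8% to 96.2% of peaks and the direction in 85.7% to 97.3%. Of the recovered calls of enrichment, 0.102% to 3.39% were false there. The nearest possible value was used for 21.0% to 54.4% of the reads of each HEK293T library, which enter the RPM denominators, and for 8.78% of HEK293T reads at the members' sites. The design had assumed whole-number reads, so the test was kept on recovered reads.

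Peaks were assigned by their centre to regions of GENCODE 44 (the methods used 35) on the gene's strand. Peak reads were fitted with voom and limma (3.58.1, R 4.3.3) over all 50 pooled libraries, with 1 term for each RBP and line and the pool as a block, since a pool is 1 tube by the labels (median correlation of deviations within a pool 0.05 in K562 and 0.04 in HEK293T). Regions needed 10 reads in all and reads in 3 libraries, and p-values were adjusted by Benjamini-Hochberg over 27646 regions. The fit was tested on simulated data. Other tools were Python 3.11.15, bedtools 2.31.1 and pysam 0.24.0. By the rule for named sites, those with reads in at least 3 of the 50 libraries were described, and the site of each gene with the highest mean RPM in every library. At most 4 other pathway genes, those with the most reads, were named. Members and lists were chosen with earlier results of these data known. Alternatives were the flank, overlap rule, scaling, filter, block, enrichment threshold, each pool left out and FAM120A alone.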

Additional observations from a re-analysis of the deposited data

Results flagged for a closer look

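The differences between the lines (HEK293T minus K562, on the log2 scale, limma interaction contrast) that passed at an adjusted p under 0.05 were -4.87 for PRPF8 at SRSF3 retained intron 5, -4.39 at SRSF7 poison exon 1.1 and -4.65 at SRSF4 retained intron 2. For RBFOX2 they were 2.22 at SRSF4 retained intron 2, 3.69 at SRSF11 poison exon 2.1 and -3.14 at TRA2B retained intron 4. For SF3B4 they were 2.99 at SRSF4 poison exon 1.3 and 2.35 at SRSF4 retained intron 2. None of the 8 passed under all 14 alternative settings. The parts of line, of pool set and, where libraries had no reads, of library depth cannot be told apart.

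SLBP, which binds the stem-loop of histone mRNAs and was outside the comparisons, had a peak of 34.8 RPM on the SRSF4 exons and a peak of 34.8 RPM in an intron of SRSF6 in its first library, each of 3 reads. In its second library it had 305 RPM on the SRSF2 exons, which are 6 reads. Those 6 reads are 2 peaks, so each of these peaks held 3 reads, the fewest that any peak held (34.8 RPM in the first library and 153 RPM in the second).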

How the results depend on the processing

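Of 38 pairs of a member site and a contrast called higher, 20 kept the call under all 14 alternative settings, and none of the 8 differences between the lines did. With the replicate block (each pool is 1 tube) left out, the calls fell from 2 to 1 for RBFOX2 in K562 (TRA2A poison exon 1.1 was lost) and from 2 to 0 for the SF3B4 line difference. SF3B4 in HEK293T lost TRA2A poison exon 1.1, and no other count moved by over 1.5 times. With a flank of 50 nt, SRSF7 poison exon 1.1 turned to -2.38 for PRPF8 in K562 and SRSF6 poison exon 2.1 to -4.01 for RBFOX2 in HEK293T, and with 200 nt SRSF4 retained intron 2 turned to -1.55 for RBFOX2 in HEK293T, since peaks then fall in another region. With any overlap in place of the peak centre, the PRPF8 line differences turned to 1.12 (SRSF3), 1.28 (SRSF7) and 1.97 (SRSF4). The cause of the other changes was not tested.

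Counts of calls moved as follows. PRPF8 in HEK293T went from 5 to 11 with any overlap and ranged from 4 to 8 with 1 pool left out. The PRPF8 line difference went from 3 to 1 with any overlap and ranged from 3 to 7 with 1 pool left out. The SF3B4 line difference went from 2 to 1 with a flank of 50 nt, median of ratios, limma trend or touching peaks counted once, and ranged from 0 to 2 with 1 pool left out. RBFOX2 in K562 went from 2 to 8 against FAM120A alone (chosen after seeing the data), 4 with a flank of 200 nt, 1 with 50 nt, 6 with median of ratios and 7 with limma trend, and ranged from 2 to 4 with 1 pool left out. The RBFOX2 line difference went from 3 to 1 with any overlap and 0 with limma trend, and ranged from 1 to 5 with 1 pool left out.

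The percentages of SR gene reads at these sites moved too. For PRPF8 they were 15.2% with a flank of 200 nt, 3.55% in peaks enriched over the complement control and 18.0% of peaks in K562, and 8.47%, 9.11% and 9.08% in HEK293T, with 9.46% by any overlap. For SF3B4 they were 26.2% (K562) and 27.0% (HEK293T) in enriched peaks. For RBFOX2 in K562 they were 5.82% with a flank of 50 nt, 10.98% with 200 nt, 10.4% by any overlap and 22.5% in enriched peaks. For RBFOX2 in HEK293T they were 6.33%, 12.1%, 10.7% and 0%, with 9.95% for touching peaks counted once and 9.01% of peaks.

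Enriched peaks at P below 1e-05 and a fold above 16 numbered 0 for PRPF8 in both lines (of 54 and 23 peaks, where 5.25% and 4.01% of all peaks passed), 6 of 37 (K562) and 5 of 25 (HEK293T) for SF3B4 (11.9% and 11.5% of all) and 0 of 27 for RBFOX2 in K562 (3.92% of all). Over the external background they numbered 57 of 60 and 17 of 28 for PRPF8 (65.3% and 41.1% of all peaks), 34 of 44 and 28 of 32 for SF3B4 (60.8% and 57.5%) and 18 of 33 and 18 of 41 for RBFOX2 (36.8% and 9.20%). With 1 pool left out they ranged from 2 to 5 (PRPF8) and 6 to 13 (SF3B4) and 2 to 3 (RBFOX2) in K562, and 1 to 2 (PRPF8) and 1 to 7 (SF3B4) in HEK293T. Depth limits EIF3G and PUM2 most, where 3 reads are 63.7 to 92.3 and 161 to 220 RPM in K562, against 1.27 to 3.61 RPM in FAM120A.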
